A study of Mus musculus with 12 samples.

Results

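The 10 genes described here encode the enzymes that hydroxylate and crosslink collagen: the lysyl oxidases *Lox*, *Loxl1*, *Loxl2* and *Loxl3*, the lysyl hydroxylases *Plod1*, *Plod2* and *Plod3*, and the catalytic subunits of prolyl 4-hydroxylase, *P4ha1*, *P4ha2* and *P4ha3*. The set is a list of names from among the 27179 genes counted, drawn up with earlier results of these data known, and all 10 were among the 15502 genes that passed the filter on low counts and were tested. The data are poly(A)+ RNA-seq counts of whole tibialis anterior (TA) muscles of WT male C57BL/6N mice, obtained at 6 to 8 weeks of age and used within 2 weeks of their arrival. The 6 Control muscles were given pcDNA3 without an insert, 10 μg each, and the 6 *FRAIL1* muscles the same amount of pcDNA3 carrying human *FRAIL1* in full length, a long non-coding RNA, and each mouse gave 1 TA to each group. All 12 muscles were injected with hyaluronidase, electroporated and taken at day 7, so both groups share these steps. The cytomegalovirus promoter of pcDNA3 is not specific to a cell type, and human *FRAIL1* is not among the mouse genes counted. Total counts ranged from 44848322 to 60527385 per muscle, and a gene of the set had between 22 and 4298 counts in a muscle. Levels are given as CPM, counts relative to library size, scaled with the TMM factors of edgeR.

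Collagen chains are modified inside the cell and again outside it. In the endoplasmic reticulum (ER), prolyl 4-hydroxylase, a complex of catalytic alpha subunits with protein disulfide isomerase (*P4hb*), makes the 4-hydroxyproline that holds the triple helix together at body temperature, and lysyl hydroxylases make the hydroxylysine that carries sugars and enters crosslinks. Both enzyme families need iron, 2-oxoglutarate, oxygen and ascorbate. After secretion, the copper enzymes of the lysyl oxidase family turn lysine and hydroxylysine of collagen and elastin into aldehydes, which then form the covalent crosslinks of the fibers. In skeletal muscle the interstitial matrix is made mainly by fibroblast-like cells between the fibers and in the tendon.

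Of the 10 genes, *Lox*, *Plod2* and *P4ha3* passed the test as higher in the *FRAIL1* group (Benjamini-Hochberg adjusted p under 0.05 over all genes tested, quasi-likelihood test of edgeR), and 0 passed as lower. At an unadjusted p under 0.05 in edgeR, 5 were higher and 1, *P4ha1*, was lower. DESeq2 and limma voom each called 4, all higher, namely *Lox*, *Loxl1*, *Plod2* and *P4ha3*. Without *FRAIL1* muscle 5, edgeR called 3, *Lox*, *Loxl1* and *Plod2*. Over all genes tested, edgeR called 4.43% higher and 1.85% lower. An unadjusted p under 0.05 in edgeR was reached by 4297 of the 15502 genes. DESeq2, run without the filter, called 2171 of 21513 genes, and limma voom 1836 of 15502. By sign alone 8 of the 10 were higher, against 51.6% of all genes tested, and 2, *P4ha1* and *P4ha2*, were lower. The median log2 fold change of the 10 was 0.32, against 0.0096 over all genes tested. All 6 *FRAIL1* muscles lay above all 6 Control muscles for 3 of the 10, namely *Lox*, *Loxl1* and *Plod2*, against 3.12% of all genes tested. *FRAIL1* muscle 5 was the highest of the 12 muscles for 7 of the 10 genes, so the fold changes of the 10 are also given without it. RNA was taken from whole muscle, in which fewer cells of a type and less RNA per cell cannot be told apart.

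**Figure D1:**
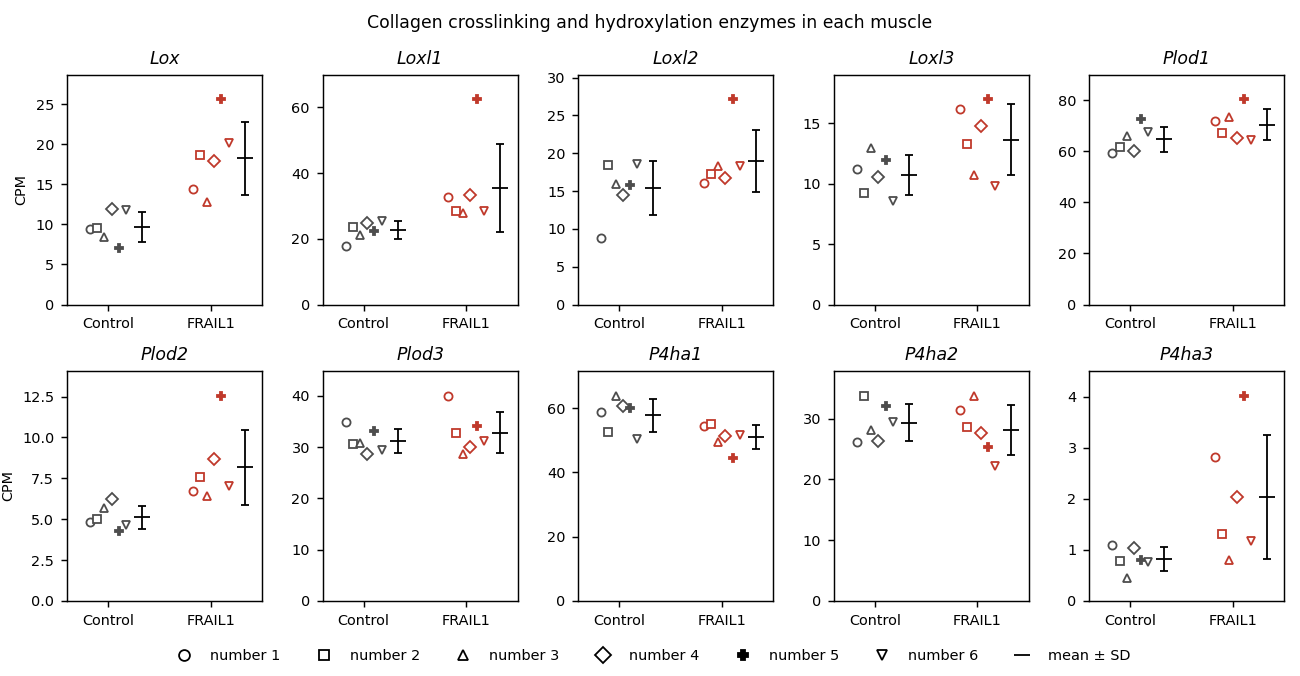
CPM (vertical axis, starting at 0) of each of the 10 genes in the 6 Control (gray) and 6 FRAIL1 (red) muscles, 1 symbol per muscle number, with number 5 filled and the bars showing mean ± SD (n = 6). The groups do not overlap for Lox, Loxl1 and Plod2, and the filled FRAIL1 symbol is the highest of 12 for 7 genes and the lowest for P4ha1.

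*Lox* (Gene ID 16948; GRCm38 chromosome 18, 52516060 to 52529867, minus strand) encodes lysyl oxidase, the founding member of the crosslinking family. Its level ranged from 7.08 CPM over a median of 9.50 to 11.9 CPM in Control muscles, and from 12.8 over 18.3 to 25.6 CPM in *FRAIL1* muscles. The lowest *FRAIL1* muscle was thus above the highest Control muscle, and the highest was muscle 5. The means were 9.71 ± 1.89 and 18.3 ± 4.54 CPM (SD, n = 6), 1.88-fold higher with a 95% interval of 1.47 to 2.41. On the log2 scale the change was 0.91 (standard error, SE, 0.166, Benjamini-Hochberg adjusted p = 0.0124, edgeR quasi-likelihood test) and the gene was higher in 6 of 6 number pairs, the muscles of 1 number being taken as those of 1 mouse. Without *FRAIL1* muscle 5 the log2 fold change was 0.79 (adjusted p = 0.00782 in edgeR). *Lox* was past the threshold in 24 of 24 alternative fits.

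*Loxl1* (Gene ID 16949; chromosome 9, 58287723 to 58313212, minus strand), the family member known for elastic fibers, ranged from 17.9 over a median of 23.0 to 25.5 CPM in Control and from 27.9 over 30.7 to 62.5 CPM in *FRAIL1* muscles. The groups did not overlap, and *FRAIL1* muscle 5 lay far above the next one, at 33.4 CPM. The means were 22.6 ± 2.75 and 35.6 ± 13.4 CPM (SD, n = 6). The log2 fold change of 0.66 (SE 0.191) had a Benjamini-Hochberg adjusted p of 0.0578 in the edgeR quasi-likelihood test, which is not past the threshold. Without *FRAIL1* muscle 5 the fold change was smaller, 0.42 on the log2 scale, and the adjusted p-value was 0.00918 by the same edgeR test, past the threshold. Over 24 alternative fits *Loxl1* was past the threshold in 9, among them those without *FRAIL1* muscle 2, 3 or 5.

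*Loxl2* and *Loxl3*, whose proteins carry scavenger receptor domains in addition to the oxidase domain, did not pass the test. *Loxl2* (Gene ID 94352; chromosome 14, 69608692 to 69695834) ranged from 8.85 over 15.9 to 18.5 CPM in Control and from 16.1 over 17.8 to 27.2 CPM in *FRAIL1* muscles. Only *FRAIL1* muscle 5 exceeded the highest Control muscle, and Control muscle 1 was the lowest of the 12. The log2 fold change was 0.30 (95% interval -0.06 to 0.67, Benjamini-Hochberg adjusted p = 0.263, edgeR quasi-likelihood test). A stretch of 2348 bases of its transcript matches the pseudogene *Gm21451* at 98% identity or more. Reads from there may have no unique position, so the count of *Loxl2* is uncertain. Its log2 fold change without *FRAIL1* muscle 5 was 0.17 (adjusted p = 0.540 in edgeR).

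*Loxl3* (Gene ID 16950; chromosome 6, 83034205 to 83052566) ranged from 8.58 over 10.9 to 13.0 CPM in Control and from 9.79 over 14.0 to 17.0 CPM in *FRAIL1* muscles. The groups overlapped, with 4 of 6 *FRAIL1* muscles above all Control muscles. Its log2 fold change was 0.34 (95% interval 0.04 to 0.64, adjusted p = 0.133 in edgeR), and it was higher in 5 of 6 number pairs. The value without *FRAIL1* muscle 5 was 0.27 (adjusted p = 0.274 in edgeR). The exons of *Loxl3* share 11.6% of their bases with *Htra2* on the opposite strand, and the strand setting of the counting is not given in the sources used here. The remaining family member, *Loxl4*, was measured among the partner genes and stood at 2.72 ± 0.550 CPM in Control and 2.71 ± 0.838 CPM in *FRAIL1* muscles (SD, n = 6).

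*Plod2* (Gene ID 26432; chromosome 9, 92539636 to 92608428, plus strand) encodes lysyl hydroxylase 2, which acts on the telopeptides at the ends of the collagen helix and thereby sets the kind of crosslink that forms. Its level ranged from 4.28 over 4.92 to 6.23 CPM in Control and from 6.42 over 7.33 to 12.6 CPM in *FRAIL1* muscles. The groups did not overlap, although *FRAIL1* muscle 3 was only just above Control muscle 4, and muscle 5 was again the highest. The means were 5.12 ± 0.716 and 8.18 ± 2.29 CPM (SD, n = 6), 1.60-fold higher with a 95% interval of 1.27 to 2.01. The log2 fold change was 0.67 (SE 0.156, Benjamini-Hochberg adjusted p = 0.0243, edgeR quasi-likelihood test) and 0.51 without *FRAIL1* muscle 5 (adjusted p = 0.0158 in edgeR). *Plod2* was past the threshold in 21 of 24 alternative fits, and the exceptions were those without Control muscle 1, 2 or 5, with adjusted p-values of 0.0568, 0.0527 and 0.0524. A predicted transcript on the opposite strand, *Gm38391*, covers 6.42% of its exons.

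The other lysyl hydroxylases act mainly on the helical part of the chain, and *Plod3* also adds sugars to hydroxylysine. *Plod1* (Gene ID 18822; chromosome 4, 147909753 to 147936776) ranged from 59.4 over 63.9 to 72.5 CPM in Control and from 64.6 over 69.4 to 80.4 CPM in *FRAIL1* muscles. Its groups overlapped, and the log2 fold change was 0.12 (95% interval -0.02 to 0.27, Benjamini-Hochberg adjusted p = 0.252, edgeR quasi-likelihood test). *Plod3* (Gene ID 26433; chromosome 5, 136987019 to 136996646) ranged from 28.8 over 30.8 to 34.9 CPM in Control and from 28.7 over 32.1 to 40.1 CPM in *FRAIL1* muscles. The highest and lowest of its 12 values were both in *FRAIL1* muscles, 1 and 3, and the log2 fold change was 0.07 (95% interval -0.10 to 0.24, adjusted p = 0.588 in edgeR). The intervals of *Plod1* and *Plod3* end below the lower end of that of *Plod2*, 0.34, though a difference between genes was not tested. When *FRAIL1* muscle 5 was left out, the log2 fold changes of *Plod1* and *Plod3* were 0.08 and 0.06. The exons of *Plod3* share 11.9% of their bases with other genes, mainly *Znhit1* on the opposite strand.

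*P4ha1* and *P4ha2* are known targets of hypoxia-inducible factors (HIF), as are *Lox* and *Plod2*, so the start regions of the 3 subunit genes are shown with the core letters of the HIF response element. The letters searched were ACGTG and GCGTG on both strands, with overlapping matches counted separately, in the 250 bases before and 50 bases after the start site in RefSeq (GRCm38.p6), and matches are in capitals. Among all 32851 such promoters, 43.8% hold at least 1 match, and 72.4% do so among those as rich in G and C (65% to 75%) as these. Of the 10 genes, 5 had an entry. *P4ha1* has 3 matches (chr10:59323046-59323345, plus strand), *P4ha2* has 4 (chr11:54100674-54100973, plus strand) and *P4ha3*, the one of the 3 called higher in *FRAIL1* muscles, has 0 in this window (chr7:100285270-100285569, plus strand). *Plod1* and *Plod3* have 2 and 4. The start sites of *P4ha1* and *P4ha3* in RefSeq lie 99 and 31 bases inside the gene spans given here.
P4ha1: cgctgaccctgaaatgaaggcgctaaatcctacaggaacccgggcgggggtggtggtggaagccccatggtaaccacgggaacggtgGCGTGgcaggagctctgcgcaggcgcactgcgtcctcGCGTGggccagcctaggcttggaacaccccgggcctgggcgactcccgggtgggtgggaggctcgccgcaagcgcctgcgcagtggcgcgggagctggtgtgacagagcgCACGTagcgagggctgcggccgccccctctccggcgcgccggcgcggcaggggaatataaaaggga
P4ha2: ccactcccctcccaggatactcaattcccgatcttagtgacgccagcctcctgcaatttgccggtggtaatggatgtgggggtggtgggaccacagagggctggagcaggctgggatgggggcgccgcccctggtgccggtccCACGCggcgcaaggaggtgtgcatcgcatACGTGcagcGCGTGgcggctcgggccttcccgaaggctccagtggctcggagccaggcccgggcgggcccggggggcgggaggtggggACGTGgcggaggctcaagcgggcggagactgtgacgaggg
P4ha3: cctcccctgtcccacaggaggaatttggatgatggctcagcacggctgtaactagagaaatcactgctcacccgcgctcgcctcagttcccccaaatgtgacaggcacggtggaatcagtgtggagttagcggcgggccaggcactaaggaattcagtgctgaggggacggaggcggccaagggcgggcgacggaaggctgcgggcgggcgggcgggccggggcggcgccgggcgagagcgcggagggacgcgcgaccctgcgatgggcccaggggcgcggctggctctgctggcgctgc

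*P4ha3* (Gene ID 320452; chromosome 7, 100285489 to 100319701) encodes the rarest of the 3 alpha subunits. It ranged from 0.455 over 0.792 to 1.10 CPM in Control and from 0.805 over 1.68 to 4.02 CPM in *FRAIL1* muscles, that is, from 22 to 215 counts. Of the *FRAIL1* muscles, 5 of 6 lay above all Control muscles, muscle 3 lay within their range, and muscle 5 was the highest. The means were 0.824 ± 0.229 and 2.03 ± 1.21 CPM (SD, n = 6), 2.45-fold higher with a 95% interval of 1.45 to 4.16. The log2 fold change was 1.29 (SE 0.356, Benjamini-Hochberg adjusted p = 0.0469, edgeR quasi-likelihood test), and the gene was higher in 6 of 6 number pairs. The adjusted p-value was 0.0128 with the number as a block. Without *FRAIL1* muscle 5 the log2 fold change was 0.97 and the call was lost, with an adjusted p-value of 0.0693 by the same edgeR test. With both muscles numbered 5 left out it was 0.97 and not past the threshold (adjusted p = 0.101 in edgeR), but with the number as a block in that fit it was 0.92 and past it (adjusted p = 0.00755 in edgeR). When single muscles were left out, 9 of 12 fits lost the call, those without *FRAIL1* muscle 2, 3 or 6 kept it, and the adjusted p-value in edgeR reached 0.0952 without *FRAIL1* muscle 1.

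*P4ha1* (Gene ID 18451; chromosome 10, 59323197 to 59373304), the main alpha subunit in most tissues, ranged from 50.5 over 59.5 to 64.0 CPM in Control and from 44.6 over 51.6 to 55.0 CPM in *FRAIL1* muscles. The groups overlapped, and *FRAIL1* muscle 5, the highest muscle for 7 other genes of the set, was the lowest of the 12 here. The means were 57.8 ± 5.14 and 51.1 ± 3.79 CPM (SD, n = 6), with a log2 fold change of -0.18 (95% interval -0.32 to -0.03, Benjamini-Hochberg adjusted p = 0.113, edgeR quasi-likelihood test), and 4 of 6 number pairs were lower. It was past the threshold in 0 of 24 alternative fits. *P4ha2* (Gene ID 18452; chromosome 11, 54100924 to 54131668) ranged from 26.1 over 28.8 to 33.8 CPM in Control and from 22.2 over 28.1 to 33.8 CPM in *FRAIL1* muscles. These ranges overlapped almost fully, and the log2 fold change was -0.06 (95% interval -0.26 to 0.14, adjusted p = 0.727 in edgeR). For *P4ha1* and *P4ha2* the log2 fold changes without *FRAIL1* muscle 5 were -0.14 and -0.03.

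**Figure D2:**
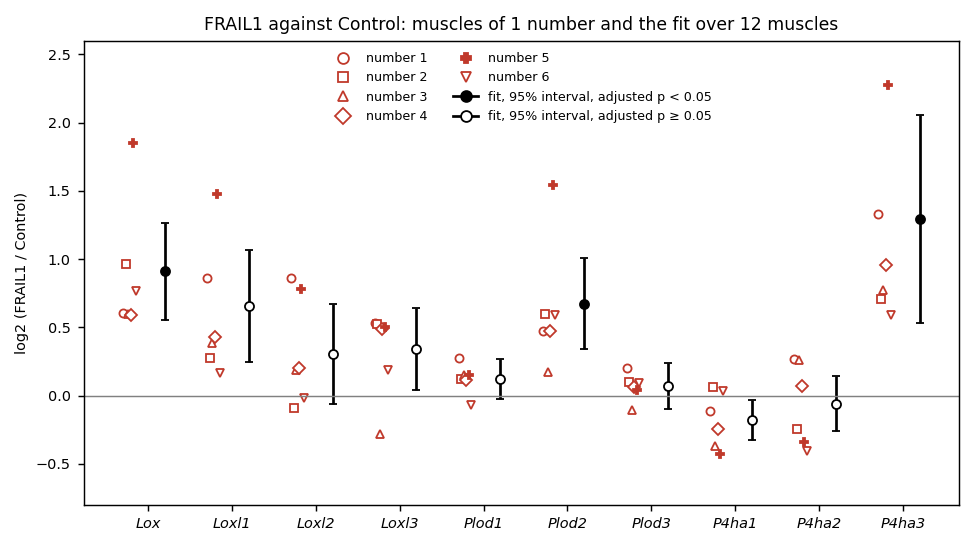
Log2 ratio of FRAIL1 to Control CPM for each muscle number (red symbols, number 5 filled), and the edgeR log2 fold change over 12 muscles with its 95% interval (black, filled where the adjusted p-value is under 0.05), for the 10 genes. Number 5 gives the largest ratio for Lox, Loxl1, Plod2 and P4ha3 and the lowest for P4ha1. For Lox and Plod2, Control muscle 5 is also the lowest of the 12 muscles, at 7.08 and 4.28 CPM.

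Per kilobase of mRNA (CPM divided by the length of the longest curated transcript), the order in Control muscles was *Plod1* (19.9 ± 1.56), *P4ha1* (14.3 ± 1.27), *P4ha2* (13.0 ± 1.37), *Plod3* (9.54 ± 0.712), *Loxl1* (6.85 ± 0.833), *Loxl2* (5.05 ± 1.17), *Loxl3* (2.62 ± 0.407), *Lox* (2.05 ± 0.398), *Plod2* (1.40 ± 0.196) and *P4ha3* (0.349 ± 0.0968; SD, n = 6 for each level). In this order the ranges of the 6 muscles overlapped between *P4ha1* and *P4ha2*, between *Loxl1* and *Loxl2*, between *Loxl2* and *Loxl3*, between *Loxl3* and *Lox* and between *Lox* and *Plod2*, so the order within these pairs is not resolved. The 3 genes called higher were the last 3. In *FRAIL1* muscles *Lox* reached 3.85 ± 0.957 CPM per kilobase against 3.33 ± 0.717 for *Loxl3*, with overlapping ranges. Within the families, *Plod2* made up 4.56 ± 0.811% of the lysyl hydroxylase mRNA per length in Control and 6.54 ± 1.43% in *FRAIL1* muscles, *P4ha3* 1.27 ± 0.382% and 3.35 ± 2.12% of the prolyl hydroxylase subunits, and *Lox* 12.4 ± 2.37% and 16.1 ± 2.61% of the 4 lysyl oxidases (SD, n = 6). All these shares overlapped between the groups. The level and rank of *Loxl2* are uncertain, because 2348 bases of its transcript match *Gm21451*. The shares of the lysyl oxidases rest on it and carry the same uncertainty.

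**Figure D3:**
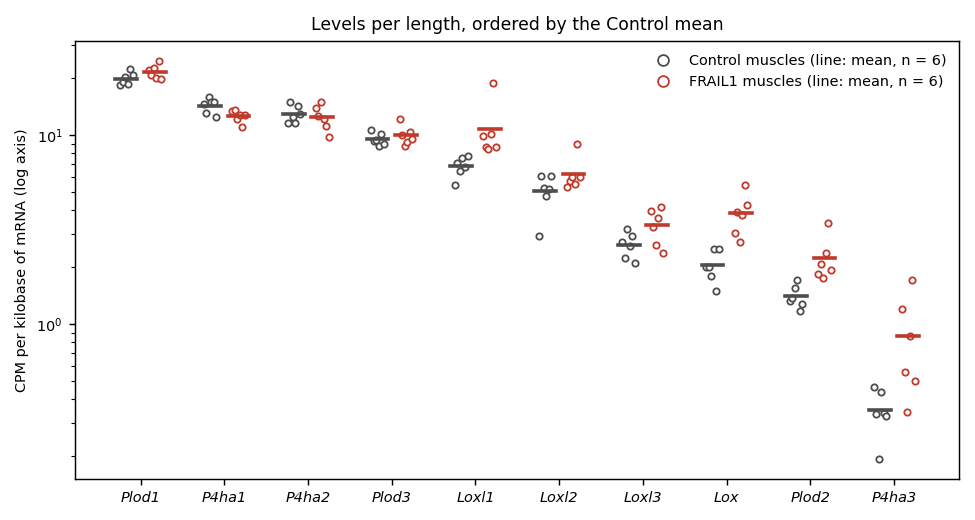
CPM per kilobase of mRNA (log axis) of the 10 genes in Control (gray) and FRAIL1 (red) muscles, 1 circle per muscle and a line at the mean (n = 6), ordered by the Control mean. Plod1 is the most abundant, and the 3 genes called higher, Lox, Plod2 and P4ha3, stand at the low end.

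The enzymes were also set against the mRNA of their main substrates in muscle, collagens I and III. The mRNA per length of *P4ha1*, *P4ha2* and *P4ha3* together was 10.1 ± 2.53 per 100 of *Col1a1*, *Col1a2* and *Col3a1* in Control and 5.54 ± 1.69 in *FRAIL1* muscles (SD, n = 6). It was lower in 6 of 6 number pairs, and only *FRAIL1* muscle 3, at 7.19, exceeded the lowest Control muscle, at 7.11. The ratio of the 3 lysyl hydroxylases was 11.3 ± 2.94 and 7.08 ± 1.72 per 100 and was likewise lower in 6 of 6 pairs, with overlapping ranges. The ratio of the 4 lysyl oxidases was 5.91 ± 0.728 and 4.82 ± 0.686 per 100 and was lower in 5 of 6 pairs, with overlapping ranges. It includes the uncertain count of *Loxl2*. The log2 fold changes of *Col1a1*, *Col1a2* and *Col3a1* were 1.05, 0.82 and 0.82. Those of *P4ha1*, *P4ha2*, *Plod1* and *Plod3*, which hold most of the hydroxylase mRNA, were -0.18, -0.06, 0.12 and 0.07. The lower hydroxylase ratios thus lie mainly in the higher collagen mRNA. These ratios were chosen after the values were seen and are given without a test.

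**Figure D4:**
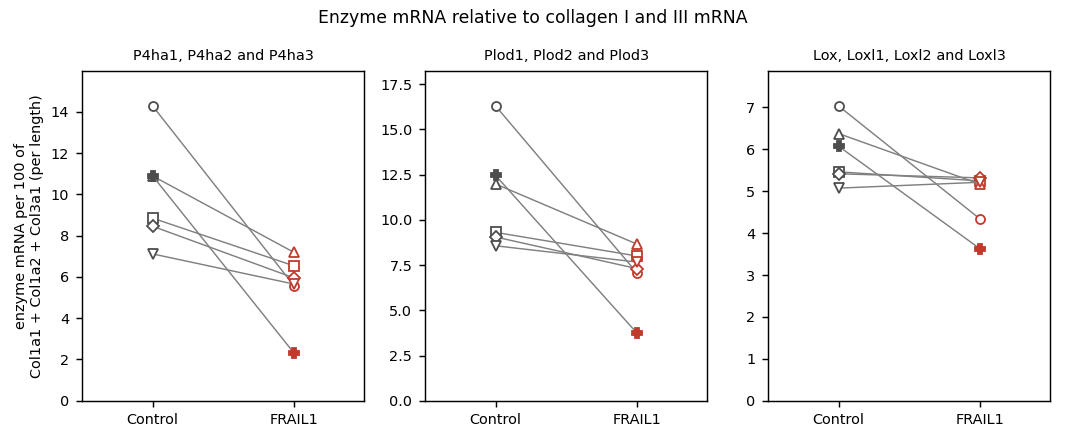
mRNA per length of the 3 enzyme families per 100 of collagen I and III mRNA (vertical axes start at 0), with a line joining the Control and FRAIL1 muscle of each number and number 5 filled. The prolyl and lysyl hydroxylase ratios are lower in the FRAIL1 muscle of all 6 pairs, and FRAIL1 muscle 5 has the lowest value in each panel.

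Of the 15 chains of fibrillar collagens, collagen IV, collagen VI and elastin tested, 14 were higher by sign, against 51.6% of all genes tested. The median log2 fold change was 0.57, and 2 passed the test, both higher, against 4.43% of all genes tested. *Col1a2*, a chain of collagen I, rose from 426 ± 99.9 to 752 ± 282 CPM (SD, n = 6; log2 fold change 0.82, Benjamini-Hochberg adjusted p = 0.0472, edgeR quasi-likelihood test), but its adjusted p-value was 0.0642 with the block and 0.0502 without *FRAIL1* muscle 5. *Col5a2*, which helps start collagen fibrils, rose from 67.4 ± 9.49 to 125 ± 50.2 CPM (log2 fold change 0.90, adjusted p = 0.0286 in edgeR). The most abundant chains, *Col3a1* and *Col1a1*, had log2 fold changes of 0.82 and 1.05 with adjusted p-values of 0.0671 and 0.0522, not past the threshold, although their groups did not overlap. Without *FRAIL1* muscle 5 the calls were *Col1a1*, *Col5a1*, *Col5a2* and *Col6a3*, and with the block they were *Col5a2* and *Col11a2*.

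Among 14 genes for propeptide processing and partners of the lysyl oxidases, 10 were higher by sign, against 51.6% of all genes tested. Their median log2 fold change was 0.27, and 3 passed the test, all higher, against 4.43% of all genes tested. *Adamts2*, which removes the amino-terminal propeptide of collagen, rose from 15.0 ± 1.19 to 20.3 ± 4.14 CPM (SD, n = 6; log2 fold change 0.44, Benjamini-Hochberg adjusted p = 0.0323, edgeR quasi-likelihood test). *Fn1*, fibronectin, which binds lysyl oxidase, rose from 107 ± 22.0 to 192 ± 56.7 CPM (log2 fold change 0.84, adjusted p = 0.0221 in edgeR and 0.0530 with the block). *Postn*, periostin, a matricellular protein that aids lysyl oxidase activation, had 54.0 ± 12.8 and 164 ± 136 CPM with *FRAIL1* muscle 5 at 435 (log2 fold change 1.60, adjusted p = 0.0469 in edgeR and 0.109 with the block). Its log2 fold change was 1.02 without *FRAIL1* muscle 5 (adjusted p = 0.0308 in edgeR) and 0.94 without both muscles numbered 5 (adjusted p = 0.0524, not past the threshold). With the block, *Adamts2* and *Efemp2*, the fibulin that carries lysyl oxidase to elastin, were past the threshold. *Tgm2*, which crosslinks matrix by another chemistry, had 144 ± 21.1 and 131 ± 10.6 CPM, with a log2 fold change of -0.14 (adjusted p = 0.351 by edgeR).

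Of the 14 ER enzymes and chaperones that act with the hydroxylases, 10 were higher by sign (median log2 fold change 0.25), against 51.6% of all genes tested. The edgeR test was passed by 0, while 4.43% of all genes tested were called higher and 1.85% lower. At an unadjusted p under 0.05 there were 9 of the 14, and 4297 of all 15502 genes. DESeq2 and limma voom called 2 each, against 2171 of 21513 genes by DESeq2 and 1836 of 15502 by limma voom. *P4hb*, the partner subunit of prolyl 4-hydroxylase, stood at 113 ± 4.95 CPM in Control and 112 ± 4.03 CPM in *FRAIL1* muscles (SD, n = 6; Benjamini-Hochberg adjusted p = 0.983, edgeR quasi-likelihood test). *Mia3*, which serves the export of collagen from the ER, had 127 ± 6.72 and 107 ± 13.4 CPM and was lower in 6 of 6 pairs (log2 fold change -0.24, adjusted p = 0.0681 in edgeR and 0.0245 with the block, past the threshold). Of 7 genes for the supply of copper, ascorbate and 2-oxoglutarate, 5 were higher by sign (median 0.098) and 0 passed the edgeR test, with 1 at an unadjusted p under 0.05 and 0 by DESeq2 and limma voom. *Idh2* and *Idh1*, the isocitrate dehydrogenases that make 2-oxoglutarate, were the most abundant, with log2 fold changes of 0.05 and 0.10.

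Of 16 genes of the HIF pathway and its targets, 11 were lower by sign, against 48.4% of all genes tested, with a median log2 fold change of -0.11. The list holds HIF and its targets together with genes that act against HIF, such as *Egln1* and *Hif1an*. Its sign count and median therefore give no direction of HIF activity. The test was passed by 1 of the 16, lower, against 1.85% of all genes tested. *Egln1*, a prolyl hydroxylase that acts on HIF and not on collagen, fell from 270 ± 10.4 to 203 ± 39.4 CPM (SD, n = 6; log2 fold change -0.41, Benjamini-Hochberg adjusted p = 0.0472, edgeR quasi-likelihood test), with no overlap between the groups. It lost the threshold in 10 of 24 alternative fits, 9 of them without 1 muscle (any Control muscle, or *FRAIL1* muscle 1, 4 or 6), with adjusted p-values up to 0.0965. *Ldha* and *Vegfa*, HIF targets of high abundance, had log2 fold changes of -0.10 (adjusted p = 0.421 by edgeR) and -0.23 (adjusted p = 0.0674 by edgeR). With the block, *Egln1*, *Hif1an* and *Vegfa* were past the threshold, all 3 lower.

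**Figure D5:**
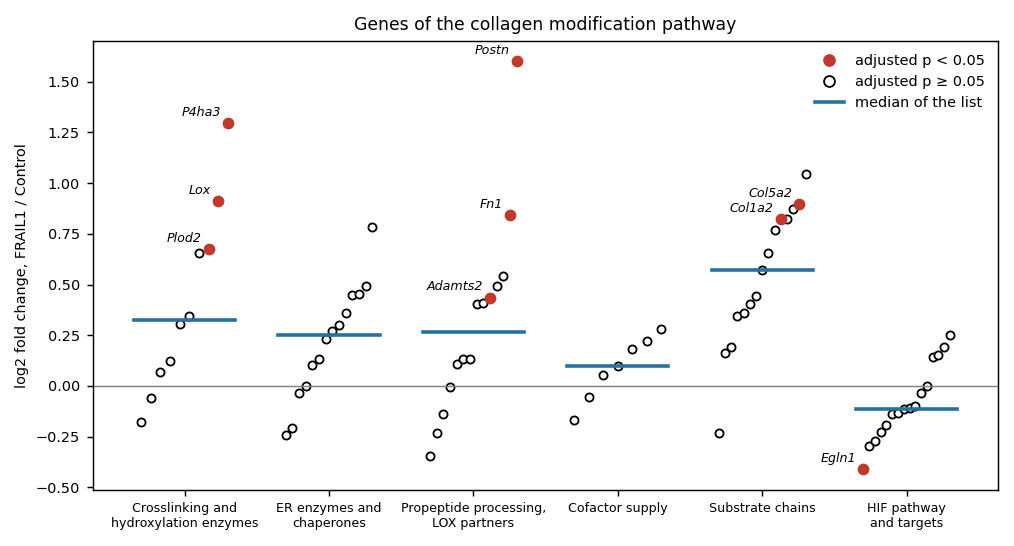
Log2 fold change between FRAIL1 and Control muscles of every tested gene of the enzyme set and of 5 pathway lists, with genes past an adjusted p-value of 0.05 in red and named, and the list median in blue. The medians are 0.32 for the enzyme set, 0.57 for the substrate chains and -0.11 for the HIF list.

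Some markers of cell types also differed between the groups, and their part in the changes of the enzymes was not tested. All markers of all 8 lists had counts in every muscle. Over all genes tested, edgeR called 4.43% higher and 1.85% lower, and 51.6% were higher by sign. Of the 15502 genes, 4297 had an unadjusted p under 0.05 in edgeR and 1836 were called by limma voom. DESeq2, run without the filter, called 2171 of 21513 genes. Of 7 markers of fibro-adipogenic progenitors, the fibroblast-like cells of muscle, 6 were higher by sign and 0 were called by edgeR (2 at an unadjusted p under 0.05, 1 by DESeq2 and 0 by limma voom), with a median log2 fold change of 0.10 and a summed level of 363 to 530 CPM in Control and 415 to 630 CPM in *FRAIL1* muscles. All 5 tenocyte markers were higher by sign, with a median log2 fold change of 0.59. *Scx* and *Thbs4* were called higher, and the sum ran from 113 to 218 and from 195 to 381 CPM. At an unadjusted p under 0.05 there were 3, and DESeq2 and limma voom called 2 each. Without *FRAIL1* muscle 5 the call of *Thbs4* was lost (adjusted p = 0.0892 in edgeR). Of 4 genes of regenerating fibers, *Myh3*, *Myh8* and *Myog* were called higher, with sums of 160 to 209 CPM in Control and 315 to 1521 CPM in *FRAIL1* muscles, the highest in muscle 5. All 4 were higher by sign and at an unadjusted p under 0.05, with 4 called by DESeq2 and 3 by limma voom. Of 7 macrophage markers 6 were higher by sign and 0 were called by edgeR (3 with the block, 5 at an unadjusted p under 0.05, 4 by DESeq2 and 2 by limma voom), with sums of 155 to 234 and 188 to 538 CPM. Of 7 muscle fiber markers 6 were lower by sign and *Ckm* was called lower, with sums of 129400 to 151900 and 99890 to 136600 CPM. Of these 7, 4 were at an unadjusted p under 0.05, all lower. DESeq2 and limma voom called 4 each, and edgeR with the block called 2. In the lists of endothelium, smooth muscle and pericytes, and Schwann cells, 0 of 5 markers each were called by edgeR and 5, 4 and 5 were lower by sign. At an unadjusted p under 0.05 there were 2, 1 and 1 of them, all lower, by DESeq2 1, 0 and 1, and by limma voom 1, 0 and 0. Their sums in Control and *FRAIL1* muscles were 364 to 436 and 300 to 388 CPM, 170 to 269 and 168 to 220 CPM, and 59.2 to 113 and 44.2 to 78.1 CPM.

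The genes most like the called enzymes were found by the root mean square distance between the 6 log2 differences of the muscles of 1 number, over 9825 genes with a mean of at least 5 CPM. Nearest to *Lox* were *Atp2a2*, the calcium pump of slow fibers (distance 0.212), *Abca1*, a cholesterol exporter (0.214), and *Arpp21* (0.233). Nearest to *Plod2* were *Hmgn2*, a nucleosome-binding protein (0.125), *Timp1*, an inhibitor of matrix metalloproteinases (0.153), and *Mir22hg* (0.153). Nearest to *P4ha3* were *Ephb3*, an ephrin receptor (0.177), *Capn6*, a calpain without protease activity (0.187), and *Myl6b*, a myosin light chain (0.212). For each of these 9 genes the largest of the 6 differences was that of number 5. The same holds for the called enzymes they were matched to, so this peak follows from how the 9 genes were chosen.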

How the data were processed

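RNA-seq of 12 mouse TA muscles, 6 Control and 6 *FRAIL1*, was analysed from the deposited counts. Per the authors' methods and processing notes, paired-end reads went through Trimmomatic, were aligned to mm10 by STAR 2.7.8a and were counted per gene with featureCounts 2.0.1 where unique. The deposited values are whole counts without normalization, and the annotation release and strand setting are not given in the sources used here. Gene IDs were matched to symbols in the GRCm38 annotation (25275 of 27179, and the rest held 0.280% of the counts).

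After filterByExpr and TMM scaling, groups were compared in edgeR 4.0.16 (R 4.3.3; glmQLFit with robust estimation, glmQLFTest), threshold 0.05 on Benjamini-Hochberg adjusted p-values over 15502 genes. The test was checked on simulated counts of independent muscles. That check does not cover 2 muscles of a mouse or a muscle that stands apart. The members and lists were chosen with earlier results of these data known. Named genes were the 10 members, each list's called genes and its 2 most abundant, and the 3 genes nearest to each called member. *Loxl4*, *Efemp2*, *Hif1an*, *Col5a1*, *Col6a3* and *Col11a2* were named after their values were seen. Alternatives were the replicate number as a block, DESeq2 size factors, upper-quartile scaling, TMM without mitochondrial and the 20 most abundant genes, leaving out each muscle, no filter, a minimum of 10 counts in all muscles, no robust step, limma 3.58.1 voom with quality weights, DESeq2 1.42.0, and no muscles numbered 5. Copies were searched with BLAST 2.17.0 (at least 98% identity over 100 bases).

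According to the labels both TAs of a mouse were used, without saying that a number marks a mouse. Deviations from group means over 15502 genes correlated at 0.254, 0.162, 0.282, 0.263, 0.0547 and 0.185 between muscles numbered 1 to 6 (mean 0.200, against -0.0400 between other numbers). Numbers were treated as mice in the number pairs and in the fits with the block. If they are not, p-values from the block do not apply. The main test had no term for the number, so it took both TAs of a mouse as independent. Depth, 44848322 to 60527385 counts, limits mainly *P4ha3*. Intervals of fold changes are from the edgeR fit and give the uncertainty of the difference between the groups. Variation between muscles enters their width, but single number pairs can lie outside them.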

Additional observations from a re-analysis of the deposited data

Results flagged for a closer look

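A muscle stood apart from the other 5 of its group by Dixon's test for 6 values in 13 of the 50 groups tested. The groups are genes measured in the same muscles, and some were named because they were called. The flags are therefore not independent, and no rate expected by chance is given. In 10 of the 13 it was *FRAIL1* muscle 5. Among the enzymes it was the highest for *Loxl1* at 62.5 CPM, *Loxl2* at 27.2 CPM and *Plod2* at 12.6 CPM.

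Among the pathway genes *FRAIL1* muscle 5 stood apart at 28.6 CPM for *Adamts2*, 435 CPM for *Postn*, 1307 CPM for *Col1a2*, 226 CPM for *Col5a2*, 2531 CPM for *Col3a1* and 1969 CPM for *Col1a1*, all high, and at 127 CPM for *Egln1*, low. For *Egln1* Control muscle 1 also stood apart, high at 291 CPM. For *Idh2* the muscles numbered 6 stood apart in both groups, at 197 CPM in Control and 180 CPM in *FRAIL1*.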

How the results depend on the processing

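The direction of all 10 enzymes was the same in 24 alternative fits. The median log2 fold change of all genes was at most 0.021 in them, without a filter, and at most 0.016 under another scaling. *Lox* kept its call throughout. The number of the 10 past the threshold was 3 with the replicate block and 5 in the DESeq2 Wald test with the block, and from 1 (without Control muscle 1, 2 or 5) to 4 (without *FRAIL1* muscle 2 or 3) when 1 muscle was left out.

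Of all genes, 974 were called, against 2186 with the replicate block, 2171 and 2827 by DESeq2 without and with it, 1836 by limma voom, 2305 without number 5 with the block, and 364 to 2110 when 1 muscle was left out (364 without *FRAIL1* muscle 1, 2110 without *FRAIL1* muscle 3). DESeq2 was run without the filter, on 21513 and 21534 genes without and with the block. *Loxl1* was past the threshold at log2 fold changes of 0.65 and 0.59 (DESeq2 without and with the block), 0.49 (limma voom), 0.66 (not robust), 0.41 and 0.42 (without number 5, without and with the block), and ranged from 0.42 to 0.72 when 1 muscle was left out. *Loxl3* was past it at 0.32 in DESeq2 with the block. *P4ha3* lost the threshold at 1.29 without a filter and at 0.97 without number 5, was past it at 0.92 without number 5 with the block, and ranged from 0.97 to 1.46 when 1 muscle was left out, *Plod2* from 0.51 to 0.74. Their range of adjusted p-values over all alternatives was 5.1e-04 to 0.111 for *Loxl1*, 0.0441 to 0.274 for *Loxl3*, 2.9e-04 to 0.101 for *P4ha3* and 0.00100 to 0.0568 for *Plod2*.

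Calls among the ER genes (0) became 1 with the replicate block, 1 without the robust step, 1 and 2 without number 5 (without and with the block), 2 by limma voom, 2 and 6 by DESeq2 (without and with the block), and 0 to 2 when 1 muscle was left out. Among processing and partner genes (3) they became 6 and 7 by DESeq2, and 0 to 5. Among substrate chains (2) they became 1 without a filter, 1 without number 5, 5 with at least 10 counts in every muscle, 6 without the robust step, 8 by limma voom, 9 and 7 by DESeq2, and 0 to 7. Among HIF genes (1) they became 0 without a filter, 3 with the block, 4 without number 5 with the block, 3 by limma voom, 4 and 5 by DESeq2, and 0 to 3. With 1 muscle left out, 0 genes were called in 9 of 12 fits for ER genes and for HIF genes (each Control muscle, *FRAIL1* muscles 1, 4 and 6), in 5 for substrate chains (Control 1, 3, 4 and 5, *FRAIL1* 1) and in 3 for partner genes (Control 1 and 3, *FRAIL1* 1). The highest counts were without *FRAIL1* muscle 3, for ER genes without *FRAIL1* muscle 2 or 3.

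*P4hb* turned from -0.0023 to positive values in 7 fits, 9.3e-04 with at least 10 counts in every muscle, 0.0037 with upper-quartile scaling, and up to 0.016 when 1 muscle was left out (lowest -0.022). *Idh2* turned negative in 3 fits that left out 1 muscle, with a range from -0.15 to 0.33. The causes were not tested. In edgeR on all 12 muscles the replicate block changed no call among the 10 enzymes, and it ended those of *Fn1*, *Postn* and *Col1a2*. It added *Loxl3* in DESeq2 and *P4ha3* in edgeR without number 5.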
